A study of Mus musculus with 10 samples.

Results

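The genes of the Golgi glycosyltransferases that start, branch, extend and cap mucin-type and related glycans were compared between oviducts without and with a functional progesterone receptor. They were chosen by name alone, as genes whose symbol in the platform annotation begins with Galnt, Gcnt, B3gnt, B4galt, B3galt, St3gal, St6gal, St6galnac, St8sia or Fut followed by a digit, which gave 68 of the 19938 genes tested. Whole oviducts of prepubertal mice, 21 to 23 days old, were taken 8 h after hCG, the ovulatory trigger (5 IU, given 44 to 47 h after 5 IU of eCG, which drives follicle growth). PRKO animals are homozygous and PR+/- controls heterozygous for a lacZ insertion in the progesterone receptor gene Pgr, so the controls too carry 1 disrupted allele, and every animal received both hormones. The insertion stops both isoforms of the receptor and is not restricted to a cell type. Oviducts of 3 animals were pooled per array, which gave 5 arrays from 15 animals in each genotype, each array hybridised to biotin-labelled RNA and read as a log2 signal per probe set. Because a whole oviduct is measured, fewer cells of a type and less RNA per cell cannot be told apart.

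Mucin-type O-glycosylation begins in the Golgi when a GalNAc transferase of the Galnt family links N-acetylgalactosamine to serine or threonine. The sugar is then extended with galactose, and branched by Gcnt enzymes. Some B3gnt and B4galt enzymes lengthen it into lactosamine chains, and some B3galt enzymes into type 1 chains. St3gal, St6gal, St6galnac and St8sia enzymes cap chains with sialic acid, and Fut enzymes with fucose. Oviduct epithelium secretes heavily glycosylated proteins into the fluid that surrounds gametes and embryos, and the sugars on cell surfaces take part in sperm binding. Several of these enzymes also act on N-glycans and glycolipids and are found in muscle, stroma and vessels.

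Of the 68 members, 4 fell in PRKO oviducts and none rose at an adjusted p under 0.05 (limma, Benjamini-Hochberg over all genes tested). They were Galnt15, a starter of O-glycans, the branching enzymes Gcnt1 and Gcnt2, and the sialyltransferase St6galnac2. Their share, 5.88%, stands beside 3.87% of all genes that fell, and the absence of rises beside 1.09% of all genes that rose, and 4.96% of all genes changed in either direction, so the count is near the background and is not a result about these genes as a group. At an unadjusted p under 0.05, 17 members (25.0%) were lower and 7 (10.3%) higher, against 11.1% and 10.1% of all genes. The ranges of the 2 genotypes did not overlap for 6 members (8.82%) that were lower and 1 (1.47%) that was higher. Of all genes 5.06% and 2.15% were so separated. The median log2 difference of the members was -0.05, and that of all genes tested 0.03. Galnt15 was the only member with a difference of at least 2-fold. Among the 64 members that did not pass, 61 had a 95% interval that lay wholly within a 1.5-fold change in either direction. The 3 exceptions were B3galt5, Gcnt7 and St6galnac1, with outer limits of -0.61, 0.60 and 0.65. These intervals are of the brightest probe set of a gene, and the other probe set of Fut11 differed by 0.57 (limma unadjusted p = 0.0632).

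**Figure D1:**
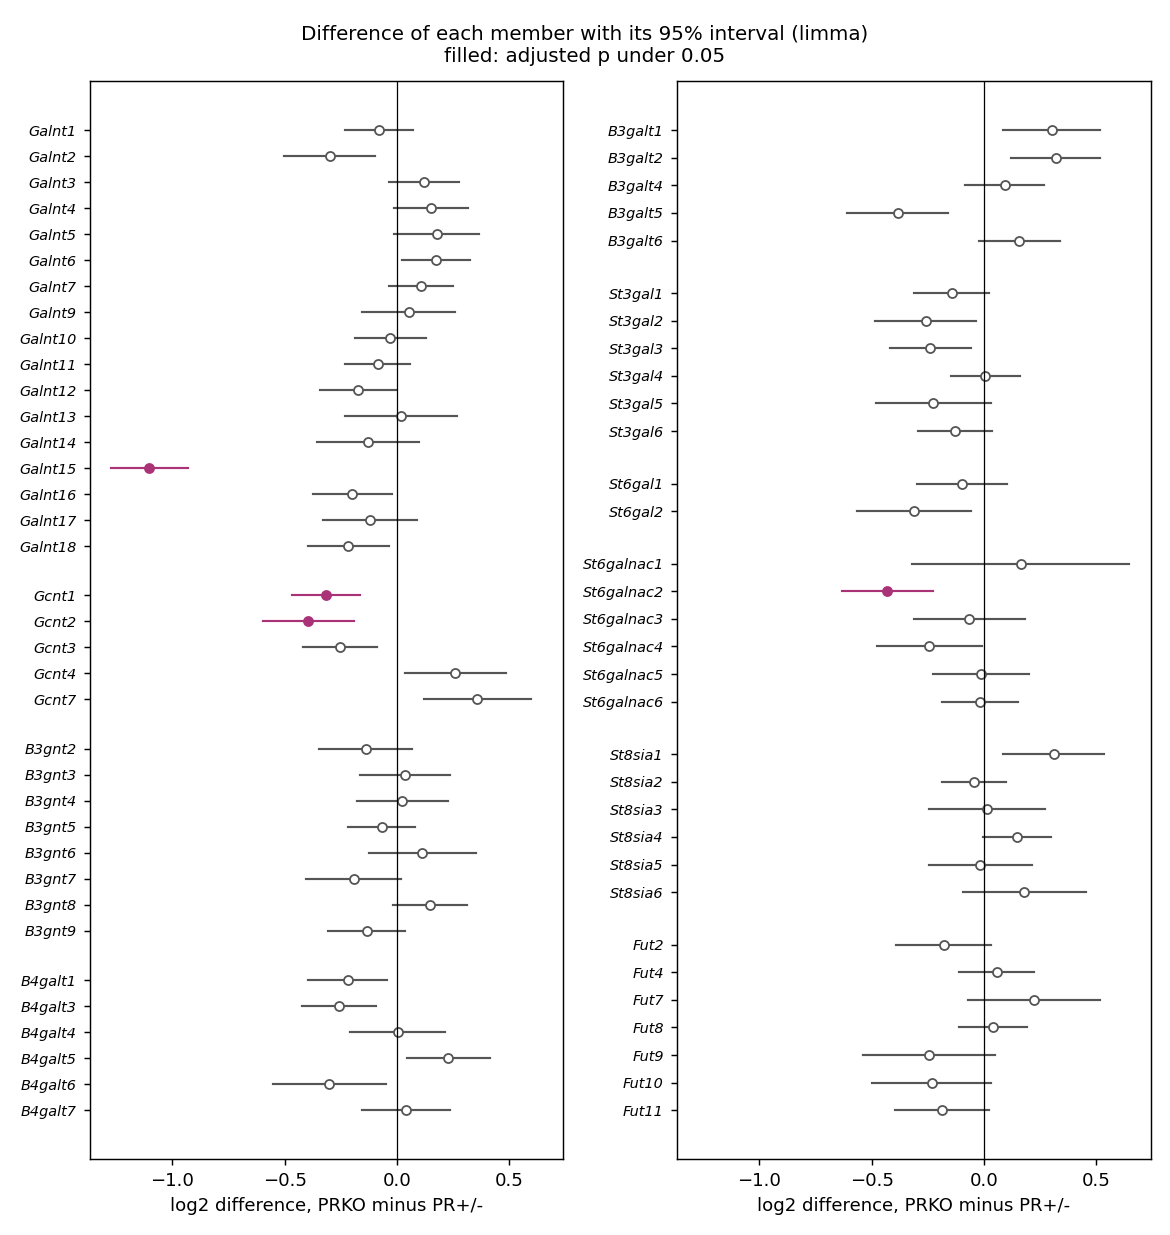
Log2 difference between PRKO and PR+/- oviducts for each of the 68 members, grouped by family, with its 95% interval from limma (5 arrays per genotype). Filled points mark the 4 members past an adjusted p of 0.05, among which Galnt15, at -1.10, stands well to the left of the rest.

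The promoter windows of the members that fell are shown first. These genes were picked by that call, so their shared direction is not a result. Whether the receptor acts on these windows was not tested. RefSeq windows (GRCm38.p6) of 300 bases, from 250 before to 50 after an annotated start, were found for 49 of the 68 members, and for 3 of the 4 that fell. The progesterone receptor recognises the half-site AGAACA, read on the other strand as TGTTCT, which glucocorticoid and androgen receptors share. The window of Galnt15, the member with the largest fall, holds no match to it and is therefore printed without capitals, while 1 of the 3 windows of Gcnt1 and 1 of the 3 of Gcnt2 hold it, in capitals below.
Galnt15, chr14:32028853-32029152, plus strand: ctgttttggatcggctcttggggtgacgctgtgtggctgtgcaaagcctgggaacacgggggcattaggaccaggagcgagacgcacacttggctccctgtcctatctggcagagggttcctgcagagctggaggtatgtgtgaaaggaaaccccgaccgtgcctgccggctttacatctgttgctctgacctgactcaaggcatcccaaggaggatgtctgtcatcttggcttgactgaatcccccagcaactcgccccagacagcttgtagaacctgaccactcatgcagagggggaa
Gcnt1, chr19:17339456-17339755, minus strand: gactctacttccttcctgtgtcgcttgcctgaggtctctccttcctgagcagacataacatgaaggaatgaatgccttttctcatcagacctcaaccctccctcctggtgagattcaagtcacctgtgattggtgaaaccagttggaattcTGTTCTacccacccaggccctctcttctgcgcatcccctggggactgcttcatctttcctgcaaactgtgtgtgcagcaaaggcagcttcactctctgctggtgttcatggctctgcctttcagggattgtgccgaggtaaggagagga
Gcnt2, chr13:40859518-40859817, plus strand: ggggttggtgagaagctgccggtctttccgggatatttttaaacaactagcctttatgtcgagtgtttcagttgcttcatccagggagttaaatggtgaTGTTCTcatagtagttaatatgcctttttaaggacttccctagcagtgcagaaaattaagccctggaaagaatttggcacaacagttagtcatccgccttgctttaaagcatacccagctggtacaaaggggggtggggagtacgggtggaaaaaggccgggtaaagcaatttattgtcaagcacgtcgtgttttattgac
The match begins at position -99 relative to the start in Gcnt1 and at -151 in Gcnt2. Gcnt2 is transcribed from alternative first exons, which the single probe set does not separate. The half-site is common, however. It occurred on either strand in 19.0% of all 32851 windows and in 15.9% of the 69 windows of members, and in 21.3% of all genes with a window against 20.4% of those 49 members. The full receptor palindrome, searched with its most variable positions left free and free to overlap a half-site, was found in 0.47% of all windows and in 2 windows of members, those of Galnt11 and St8sia1, with log2 differences of -0.08 and 0.31 that did not pass. The estrogen receptor palindrome was in 0.07% of all windows and in none of the members'. A match describes the letters only, and no match says only that these letters are not in this window.

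GalNAc transferases, which choose the sites where O-glycans start, made up the largest family, with 17 members. Galnt15 read 7.90, 7.97, 7.94, 7.69 and 7.82 on PR+/- arrays 1 to 5 and 6.69, 6.82, 6.82, 6.61 and 6.85 on PRKO arrays 1 to 5 (log2 signal). Every PRKO array was below every PR+/- array, with 0.83 log2 units between the ranges. The gene was thus 2.15-fold lower, a log2 difference of -1.10 ± 0.080 (SE, n = 5 each, limma adjusted p = 1.45e-06), and it stayed called in each of the 22 alternative analyses, where the difference lay between -1.16 and -1.03. The other 16 did not pass. Galnt2, a widely expressed transferase with broad substrate range, came next at 7.79 ± 0.11 on the control arrays and 7.49 ± 0.18 on the PRKO arrays (SD, n = 5 each), a log2 difference of -0.30 ± 0.094 (adjusted p = 0.0869), and passed without PRKO replicate 1 (-0.37, adjusted p = 0.0280). Galnt12, Galnt16 and Galnt18 were lower at an unadjusted p under 0.05, with log2 differences of -0.17, -0.20 and -0.22, and Galnt6 was higher, by 0.18. The ranges of Galnt6 did not overlap, but only 0.0114 log2 units lay between them. Galnt6 was dim, with a mean log2 signal of 3.73, and the median difference of all genes of similar signal was 0.12. Galnt1, Galnt3, Galnt7 and Galnt11 had differences of -0.08, 0.12, 0.11 and -0.08. The family's median was -0.08.

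Branching enzymes of the Gcnt family split by gene. Gcnt1, which builds the core 2 branch of O-glycans and with it a scaffold for selectin ligands, read 8.28, 8.25, 8.32, 8.34 and 8.36 on PR+/- arrays 1 to 5 and 8.00, 7.82, 8.07, 8.02 and 8.05 on PRKO arrays 1 to 5. The genotypes did not overlap, and PRKO replicate 2 was the lowest array. The log2 difference was -0.32 ± 0.071 (SE, 1.24-fold lower, adjusted p = 0.0191). Gcnt2, the I-branching enzyme of lactosamine chains, read 7.73, 7.88, 7.67, 7.69 and 7.82 in PR+/- and 7.31, 7.58, 7.42, 7.45 and 7.05 in PRKO. Its ranges were separate too, with PRKO replicate 5 well under the other PRKO arrays, and the log2 difference was -0.39 ± 0.095 (1.31-fold lower, adjusted p = 0.0269). Gcnt3, which forms core 2 and core 4 branches in mucin-secreting epithelia, read 9.38, 9.26, 9.22, 9.35 and 9.14 in PR+/- and 9.08, 9.03, 8.95, 9.14 and 8.87 in PRKO. Its highest PRKO array came within 0.00081 log2 units of the lowest PR+/- array, and its difference of -0.25 ± 0.077 did not pass (adjusted p = 0.0791). Gcnt4, another core 2 enzyme, and Gcnt7 lay on the other side of 0, with log2 differences of 0.26 ± 0.10 (adjusted p = 0.173) and 0.36 ± 0.11 (adjusted p = 0.0798). Gcnt7 was dim, with a mean log2 signal of 3.93, and the median difference of all genes of similar signal was 0.12. After quantile normalization Gcnt7 stood at 0.25 (limma adjusted p = 0.245). In this family of 5, 2 fell and 3 did not pass.

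The calls of both branching enzymes were close to the threshold. Gcnt1 lost its call without PR+/- replicate 5 (log2 difference -0.30, adjusted p = 0.0539), after quantile normalization (-0.25, adjusted p = 0.0902) and after cyclic loess normalization (-0.26, adjusted p = 0.0810). Gcnt2 lost its call without PR+/- replicate 1, 2 or 5 (adjusted p 0.0611, 0.0814 and 0.0695, at log2 differences of -0.40, -0.36 and -0.38), without PRKO replicate 1 (-0.38, adjusted p = 0.05002) and without PRKO replicates 1 and 5 together (-0.27, adjusted p = 0.0879). With the interquartile range of each array as a covariate, that of Gcnt2 was -0.21 (adjusted p = 0.403), nearer to 0 by over 1.5 times. Without the 2 arrays that carried ovarian signal, PR+/- replicate 4 and PRKO replicate 3, the differences were -0.33 and -0.43 and the adjusted p 0.0691 and 0.0755.

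**Figure D2:**
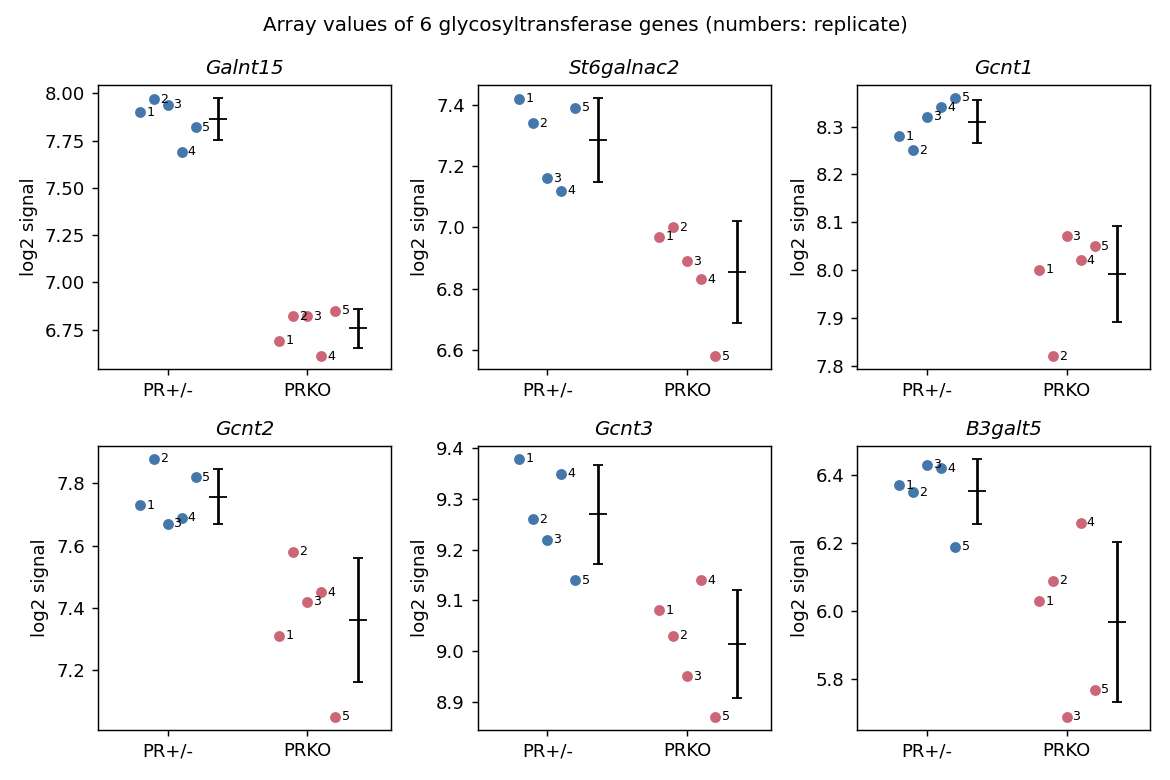
Log2 signal of 6 members on each array, with the replicate number beside each point and the mean ± SD (n = 5) to the right of each genotype; the vertical scale differs between panels. Galnt15, St6galnac2, Gcnt1 and Gcnt2 fell, with no overlap between genotypes, while Gcnt3 nearly touches and B3galt5 overlaps.

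The sialyltransferases of the St6galnac family attach sialic acid to the first sugar of O-glycans or to gangliosides, and 1 of its 6 members fell. St6galnac2, which acts on short O-glycans, read 7.42, 7.34, 7.16, 7.12 and 7.39 on PR+/- arrays 1 to 5 and 6.97, 7.0, 6.89, 6.83 and 6.58 on PRKO arrays 1 to 5. No PRKO array reached the PR+/- range. The log2 difference was -0.43 ± 0.094 (SE, 1.35-fold lower, adjusted p = 0.0168). Its call was lost without PR+/- replicate 1 (-0.40, adjusted p = 0.0544) or 2 (-0.42, adjusted p = 0.0512) and with the interquartile range as a covariate (-0.31, adjusted p = 0.269). St6galnac1, the maker of the sialyl-Tn antigen and the closest relative of St6galnac2, was the most variable member. Its signal spread from 3.77 to 5.06 in PR+/- and from 4.03 to 4.97 in PRKO, so the difference of 0.16 ± 0.23 (adjusted p = 0.705) was measured poorly. St6galnac4 had a difference of -0.24 (adjusted p = 0.219), and St6galnac3, St6galnac5 and St6galnac6 lay at -0.07, -0.01 and -0.02.

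The 6 St3gal genes, whose enzymes cap galactose with sialic acid on O-glycans, N-glycans and glycolipids, did not pass. Of these, 5 had a difference below 0, and the family's median was -0.18. All 6 were brighter than the median signal of all genes (5.68). Of all genes that bright, 62.2% were below 0, with a median of -0.04. St3gal2, which caps core 1 O-glycans and gangliosides, measured 6.53 ± 0.15 in PR+/- and 6.27 ± 0.20 in PRKO oviducts (SD, n = 5 per genotype), a log2 difference of -0.26 ± 0.11 (adjusted p = 0.175). The ranges of St3gal3, an enzyme of N-glycan and glycolipid chains, were separated by 0.026 log2 units (difference -0.24, adjusted p = 0.125). St3gal1 had a difference of -0.14 on its brighter probe set and -0.19 on its other one, and St3gal4 one of 0.01. St6gal1, the main enzyme that caps N-glycans through the other linkage to galactose, and St6gal2 had differences of -0.10 and -0.31 (adjusted p = 0.577 and 0.149). St6gal2 passed in 1 of its 20 alternatives, after quantile normalization, at -0.42 (adjusted p = 0.0439).

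Of the 6 St8sia genes, which add sialic acid to sialic acid, none passed. St8sia1, the synthase of the ganglioside GD3, was the highest of them by difference, with 4.59 ± 0.17 in PR+/- and 4.90 ± 0.20 in PRKO oviducts (SD, n = 5 per genotype, log2 difference 0.31 ± 0.11, adjusted p = 0.112). The polysialyltransferase genes St8sia2 and St8sia4 had differences of -0.04 and 0.15, and St8sia6 one of 0.18. The 7 fucosyltransferase genes did not pass either, at unadjusted p above 0.05. Fut9, which makes the Lewis x structure, measured 7.23 ± 0.18 in PR+/- and 6.98 ± 0.32 in PRKO (log2 difference -0.24 ± 0.14, adjusted p = 0.325). Without 1 array or under another setting that value spanned -0.35 to -0.01. Fut2, the secretor enzyme of epithelia, and Fut8, which adds the core fucose of N-glycans, had differences of -0.18 and 0.04. The 2 probe sets of Fut11 disagreed, at -0.19 on the brighter one and 0.57 on the other (unadjusted p = 0.0757 and 0.0632).

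Among the galactosyltransferase and N-acetylglucosaminyltransferase genes of the B3galt, B4galt and B3gnt families, 0 of 19 passed (limma, 4 lower and 3 higher at an unadjusted p under 0.05). B3galt5, which builds type 1 chains in epithelia, was the nearest to the threshold. It read 6.37, 6.35, 6.43, 6.42 and 6.19 on PR+/- arrays 1 to 5 and 6.03, 6.09, 5.69, 6.26 and 5.77 on PRKO arrays 1 to 5, and PRKO replicate 4 lay above PR+/- replicate 5. The log2 difference was -0.38 ± 0.11 (adjusted p = 0.0512), and it passed without PRKO replicate 2 (-0.41, adjusted p = 0.0481) or 4 (-0.46, adjusted p = 0.0163). Its relatives B3galt1 and B3galt2 stood on the other side, with 3.89 ± 0.15 and 2.63 ± 0.18 in PR+/- and 4.19 ± 0.19 and 2.95 ± 0.11 in PRKO oviducts (SD, n = 5 per genotype). Their log2 differences were 0.30 ± 0.10 (adjusted p = 0.106) and 0.32 ± 0.092 (adjusted p = 0.0633). Both genes were dim, with mean log2 signals of 4.04 and 2.79. The median difference of all genes of similar signal was 0.11 and 0.12. After quantile normalization B3galt1 stood at 0.19 (limma adjusted p = 0.402) and B3galt2 at 0.20 (adjusted p = 0.286). B3galt2 passed without PR+/- replicate 4 (0.37, adjusted p = 0.0450) and B3galt1 without PRKO replicate 5 (0.37, adjusted p = 0.0481). After centring each array on its median the members split into 4 that fell and 1 that rose, B3galt2 (0.35, adjusted p = 0.0392).

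Several B4galt enzymes add the galactose of lactosamine. B4galt3, an N-glycan enzyme of this kind, measured 7.003 ± 0.040 in PR+/- and 6.75 ± 0.13 in PRKO oviducts (SD, n = 5 per genotype), a log2 difference of -0.26 ± 0.077 (adjusted p = 0.0753), and it passed without PRKO replicate 2 (-0.31, adjusted p = 0.0205). B4galt1, the main lactosamine enzyme and a protein also described on sperm, had a difference of -0.22 (adjusted p = 0.146). B4galt5 and B4galt6, both synthases of lactosylceramide, lay on opposite sides of 0, at 0.23 ± 0.086 and -0.30 ± 0.12 (adjusted p = 0.140 and 0.162), and B4galt6 was lowest on PRKO replicate 5, at 5.31. Of the 8 B3gnt genes, which add N-acetylglucosamine to growing chains, B3gnt7 had the largest difference, from 6.66 ± 0.085 to 6.47 ± 0.22 (log2 difference -0.19, adjusted p = 0.282). The others ranged to 0.15, in B3gnt8.

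Close relatives were then set against each other, to ask whether they changed unequally. For each pair the log2 difference between both genes was taken on every array. It was compared between genotypes by a two-sided exact permutation test, with p adjusted over the 14 pairs analysed. None of the 14 pairs passed, and 3 had an unadjusted p under 0.05. Galnt4 lay 0.32 ± 0.070 above Galnt12 in PRKO relative to PR+/- (SE, n = 5 each), and B4galt5 0.53 ± 0.15 above B4galt6. Both reached an exact permutation p of 0.00794, the smallest that 252 arrangements can give, which became 0.0556 over the 14 pairs. At this number of arrays neither 1 pair alone nor both of these could have passed, however large their differences. No conclusion is therefore drawn from their missing the threshold. St8sia2 lay 0.19 below St8sia4 (log2 difference of changes -0.19, exact permutation p = 0.0238, adjusted p = 0.111). For St6galnac1 against St6galnac2 the value was 0.59 ± 0.29 (exact permutation p = 0.0714, adjusted p = 0.200), and for Gcnt1 against Gcnt3 it was -0.06 ± 0.092 (exact permutation p = 0.508). A pair that missed the threshold is not shown to act alike.

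**Figure D3:**
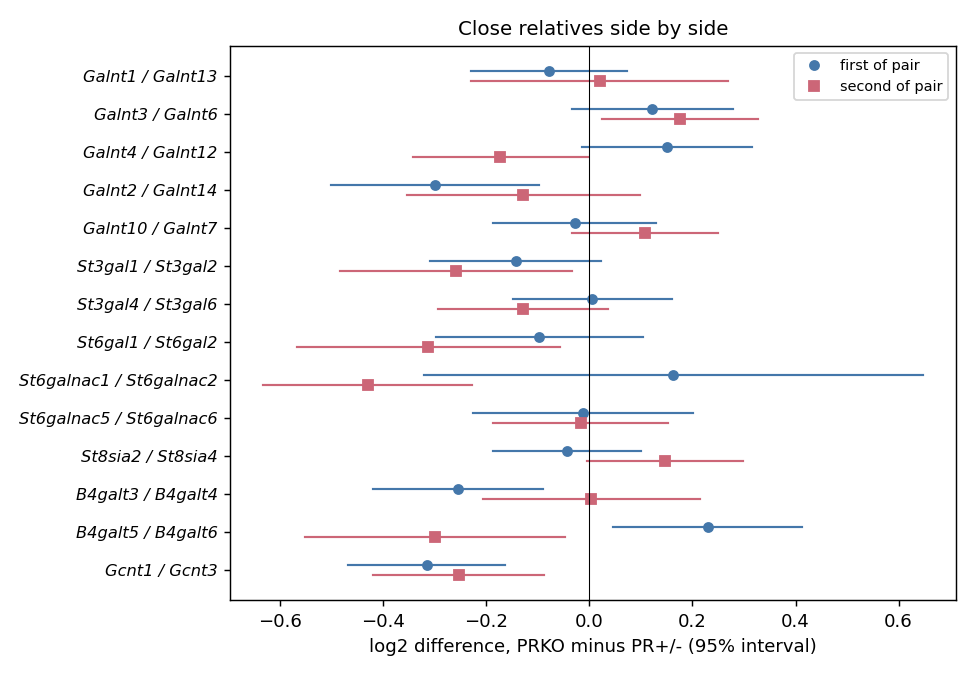
Log2 difference between PRKO and PR+/- oviducts for both members of the 14 related pairs, with 95% intervals from limma (circle, first gene; square, second gene). The markers of B4galt5 and B4galt6 lie on either side of 0, at 0.23 and -0.30, as do those of Galnt4 and Galnt12, at 0.15 and -0.17.

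The direction of a difference went with the brightness of the signal, in the members as in all genes. Of the 40 members brighter than the median mean signal of all genes (5.68), 27 (67.5%) had a difference below 0, with a median of -0.14, and of all genes that bright 62.2% did, with a median of -0.04. Of the 28 dimmer members, 12 (42.9%) were below 0, against 25.5% of all genes there. Each of the 4 that fell was among the brighter members, of which they made up 10%, and 6.71% of all brighter genes fell. At an unadjusted p under 0.05 (limma), 14 of the 40 brighter members were lower and 2 higher. Of all 9969 brighter genes, 1836 were lower and 505 higher. Among the 28 dimmer members 3 were lower and 5 higher, and among all 9969 dimmer genes 372 and 1502. The interquartile range of an array over genes was 2.93 to 3.27 in PRKO and 3.20 to 3.38 in PR+/-, so the genotypes overlapped. PRKO replicate 5, the array with the lowest interquartile range, gave the lowest PRKO value for 20 of the 40 brighter members (50%), and for 41.1% of all brighter genes. With the interquartile range as a covariate 2 members fell, Galnt15 and Gcnt1, and none rose; its part in the other calls was not tested further.

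**Figure D4:**
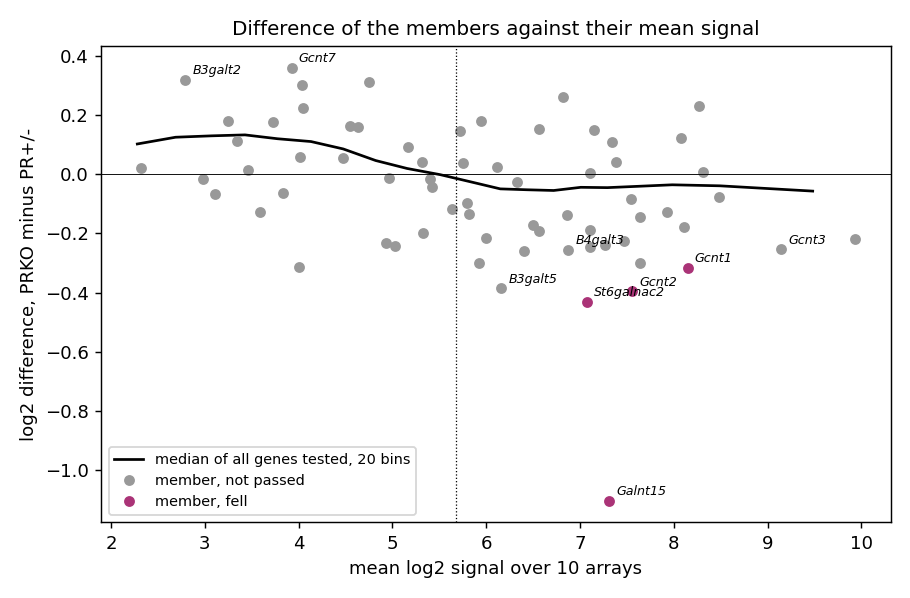
Log2 difference between PRKO and PR+/- oviducts against the mean log2 signal over 10 arrays for the 68 members, with the median of all genes tested in 20 bins as a line and the median signal of all genes as a dotted line. The line is above 0 in the 9 dimmest bins and below it in the rest; the 4 members that fell lie to its right, under the line.

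The spread between pools of one genotype was larger in PRKO for 49 of the 68 members (72.1%), and for 74.7% of all genes. The median SD of a member was 0.11 in PR+/- and 0.15 in PRKO on the log2 scale. A member's 95% interval reached 0.20 to either side of its difference at the median, and 0.48 in St6galnac1, the widest.

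Genes that feed, use or trim these glycans were read from lists chosen by function. Of 101 measured, 7 fell (6.93%) and none rose (limma; 13 were lower and 15 higher at an unadjusted p under 0.05). Of all genes 3.87% fell and 1.09% rose, and 11.1% were lower and 10.1% higher at that unadjusted p. Of the 7 falls, 4 were near the threshold. The deepest were in carriers of glycans. Mcam, an adhesion glycoprotein of endothelium and smooth muscle that is not a mucin, had a log2 difference of -0.86 ± 0.074 (1.82-fold lower, adjusted p = 8.71e-06), Cd34, a sialomucin of endothelium and stroma, one of -0.72 ± 0.085 (1.65-fold, adjusted p = 1.44e-04), and Emcn, an endothelial sialomucin, one of -0.53 ± 0.11 (1.44-fold, adjusted p = 0.00969). The other 18 of 21 mucins and carriers did not pass, among them Muc1, the main epithelial cell-surface mucin, at 0.28 (adjusted p = 0.0834), and Muc16 at -0.26 (adjusted p = 0.119).

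Supply and trimming showed single falls. Gfpt2, a form of the enzyme that opens the hexosamine pathway to N-acetylglucosamine, fell by 0.51 on the log2 scale (adjusted p = 0.0245), and the other 18 of 19 genes of nucleotide sugar synthesis and transport did not pass. Glb1, the lysosomal beta-galactosidase, fell by 0.29 (adjusted p = 0.0317), Chst10, which sulfates the HNK-1 epitope, by 0.42 (adjusted p = 0.0244), and Mgat4a, an N-glycan branching enzyme, by 0.38 (adjusted p = 0.0431), each 1 of 12, 11 and 15 genes of its list. Among 14 other Golgi transferases, which include C1galt1, the synthase of core 1, and its chaperone C1galt1c1, and among 9 receptors for sialic acid and selectins, none passed. The calls of Gfpt2, Glb1, Chst10 and Mgat4a were near the threshold, and each was lost in some of the analyses that leave out 1 array. Without PR+/- replicate 1 and without PR+/- replicate 3 only 3 of the 7 remained in number, and without PR+/- replicate 4 there were 4, since Gfpt2, Glb1, Chst10 or Mgat4a then had adjusted p between 0.0523 and 0.103. Mgat4a was called in 2 of the 10 analyses that leave out 1 array, Glb1 in 4, Chst10 in 6 and Gfpt2 in 7, while Mcam, Cd34 and Emcn were called in each of the 10. Emcn lost its call with the interquartile range as a covariate (-0.42, adjusted p = 0.188).

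Markers of the cells of an oviduct were read beside these values. Those of secretory epithelium did not pass (0 of 6, median log2 difference -0.01), and the mean log2 signal of the list ranged over arrays from 8.63 to 8.82 in PR+/- and from 8.50 to 8.77 in PRKO. Pax8, Krt8, Epcam and Wt1 had differences of -0.01, -0.01, 0.10 and -0.0023, and Krt18 and Sox17 were lower, at -0.21 (adjusted p = 0.243) and -0.14 (adjusted p = 0.261). Of 6 smooth muscle markers 6 fell, with a list mean of 10.01 to 10.2 in PR+/- and 9.08 to 9.32 in PRKO. In endothelium 2 of 5 fell, Emcn and Pecam1, and Kdr and Cdh5 lay at 0.02 and -0.02 (list mean 6.24 to 6.38 and 5.99 to 6.28). Of the stroma list 1 of 5 fell, Pdgfra, and of leukocyte markers 0 of 7. Of 6 multiciliated cell markers 1 rose, Cfap43, a gene of the ciliary axoneme (log2 difference 0.55 ± 0.087, adjusted p = 0.00162), and the other 5, which include Foxj1 at -0.11 and Tppp3 at -0.26, did not pass (list mean 8.41 to 8.69 in PR+/- and 8.46 to 8.65 in PRKO). Which of these cells holds Galnt15 or the branching enzymes was not measured, and the part of the muscle and vessel genes in the members' falls was not tested. Ovarian follicle markers stood high on 1 array of each genotype (list mean 5.38 in PR+/- replicate 4 and 5.54 in PRKO replicate 3). On both of these arrays B3galt2, St6gal1 and St6galnac5 were the highest of their genotype and B3gnt5 and B4galt7 the lowest. How many of all genes were so on both was not counted, so these names are not read as ovarian. PR+/- replicate 4 was the highest of its genotype for 16.2% of members and 17.5% of all genes, and the lowest for 19.1% and 23.0%. For PRKO replicate 3 the shares were 17.6% and 16.4%, and 16.2% and 12.7%. Without both arrays, 2 members fell, Galnt15 and St6galnac2. Pgr itself read 7.27 to 7.55 in PR+/- and 6.31 to 6.39 in PRKO.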

How the data were processed

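Per the labels' protocols, total RNA of whole oviducts, 3 animals per pool, was labelled with the Affymetrix whole-transcript kit, and the submitters' processing notes name Partek. For its version, background correction and normalization, the sources used here give nothing. The deposited log2 values (the scale was inferred from their range, so folds hold only if it is right) were used as they stood, with no filter on dim signal. Of 35557 rows, 21789 had 1 gene symbol in the platform annotation, and 1621 with several (B4galt2 and the oviductin gene Ovgp1 among them) and 12147 with none named no gene. The probe set with the highest mean stood for a gene. Fut1 was not analysed here.

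All 19938 genes were fitted with limma 3.58.1 in R 4.3.3, with genotype as the term, and Benjamini-Hochberg adjustment ran over the whole table. Values with ± are SE of a log2 difference unless SD is stated. As arrays are pools of different animals, p reflects how pools vary, and precision is limited by how many arrays there are. The procedure was tested on simulated data. The members and lists were chosen with earlier results of these data known. Members were described singly if called, at an unadjusted p under 0.01, or largest in their family; other members were named after their values were seen. Pairs of relatives were chosen by sequence family. Of the 16 listed, 2 were not analysed, those with Fut1 or B4galt2. The row of B4galt2 names several genes and was set aside. The deviations of same-numbered arrays correlated at 0.104, 0.125, -0.0126, 0.129 and 0.159 for replicates 1 to 5. They did not go together in replicate 3, and the numbers are not known to pair the samples, so numbers were not used as a block. Alternatives are listed with their effect at the end.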

Additional observations from a re-analysis of the deposited data

Results flagged for a closer look

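Single arrays stood apart from the other 4 of their genotype in 8 of the 136 groups of 5 values checked (68 members in each genotype), and chance flags about 1 group in 20. On PR+/- replicate 3, B3gnt4 was low at 5.77 (the others 6.15 to 6.24), Galnt9 high at 4.76 (4.34 to 4.43) and St8sia2 high at 5.51 (5.43 to 5.44). On PRKO replicate 3, St8sia2 was low at 5.27 (5.42 to 5.46). PRKO replicate 5 was low for B4galt6, at 5.31 (5.82 to 5.97), and for Fut2, at 7.73 (8.07 to 8.13). PRKO replicate 2 was low for Gcnt1, at 7.82 (8.00 to 8.07), and for St8sia3, at 3.19 (3.49 to 3.59). Gcnt1 is the 1 flagged gene among the 4 members that fell, and without that array it was called as well.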

How the results depend on the processing

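The 4 members called lower of 68 (3.87% of all genes) became 8 of 40 when the dimmest 50% of genes were removed (9.96% of the genes left) and 7 with a variance trend and robust moderation (4.87%), and 2 with the interquartile range as a covariate (1.41%) or without both arrays that carried ovarian signal (2.45%), so the share of all genes moved in the same direction. Leaving out each array in turn gave 2 to 6 (2 without PR+/- replicate 1, 2 or 5, and 6 without PRKO replicate 2). The count called higher, 0, became 1 after median centring and with array weights, and 0 to 1 with each array left out. With the replicate number as a block it became 2 (B3galt2 and Gcnt7) and the lower count 6 (B3galt5 and Galnt2 added); the numbers are not known to pair the samples, and 3 of 5 PR+/- arrays correlated best with the PRKO array of their number. The 7 linked genes called lower became 3 after quantile normalization, 4 after cyclic loess, 4 with the covariate and 4 without the arrays with ovarian signal, with 3 to 7 when each array was left out. The linked genes called higher, 0, became 1 after quantile normalization, cyclic loess, removal of the dimmest 50%, a variance trend, or without PRKO replicates 1 and 5, 2 after median centring, and 0 to 1 with an array left out. The 17 members chosen by the rule and the 7 linked genes that fell kept their direction in the alternatives run on them; other genes were not followed. Fewer arrays or fewer genes tested enter some of these analyses; otherwise the cause was not tested. The array table holds no background values, so what low signal hides is unknown.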
